A study of Mus musculus with 12 samples.

Results

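Haploid EpiSC-2 is a mouse epiblast stem cell line of strain 129Sv, and its 3 arrays, out of 12 in the series, were set against the 6 arrays of both diploid lines. The arrays were chosen by their titles alone. Diploid EpiSC-1 and diploid EpiSC-2, with 3 arrays each titled as biological replicates, are of strain B6D2F1, a cross of C57BL/6 and DBA/2. All 3 lines were grown in N2B27, a serum-free medium, with bFGF and Activin A, lifted with trypsin, and their RNA was hybridised to an Affymetrix mouse expression array. A second haploid line was not used here. The question was which genes differed in the same direction from each of the diploid lines, so that a difference between the diploid lines themselves would not count as one of haploid EpiSC-2. Only 1 haploid line was compared, and it is of another strain, so ploidy, strain, line and any clonal change cannot be told apart. The p-values measure the spread between cultures or preparations of the same line. Whether the haploid cells kept a single chromosome set at harvest is not given in the sources used here.

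Epiblast stem cells are pluripotent cells that resemble the epiblast after implantation. They are epithelial, with E-cadherin at their contacts, depend on FGF and Activin, and keep Pou5f1 and Sox2 while naive genes such as Zfp42 are low. In the embryo they would leave this state through the primitive streak, where epiblast cells lose epithelial contacts, raise Snai-family repressors and matrix proteins and become mesenchymal. Among the guards of genome integrity in such cells is p53, a transcription factor that drives the cyclin-dependent kinase inhibitor Cdkn1a, its own inhibitor Mdm2 and genes of cell death.

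The values are MAS5 signals, a brightness per probe set on a linear scale that the authors' software set to the same trimmed mean, 500, on every array. The scale therefore cannot show a change in total RNA per cell. For each gene the brightest probe set with a single gene symbol was taken, and 11067 genes with a mean log2 signal of at least 5.925 (a signal of 60.76) were tested with limma. A gene was called when its adjusted p was under 0.05 against each diploid line with the same sign. Arrays of the same line correlated at 0.990 to 0.992 over the log2 signals of the tested genes, haploid EpiSC-2 with diploid EpiSC-1 at 0.906 to 0.909 and with diploid EpiSC-2 at 0.912 to 0.916, and the diploid lines with each other at 0.951 to 0.954. The ratio of 3' to 5' actin probe sets, a sign of RNA integrity, was 1.387 to 1.424 in haploid EpiSC-2, 1.462 to 1.529 in diploid EpiSC-1 and 1.57 to 1.682 in diploid EpiSC-2.

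Haploid EpiSC-2 differed from diploid EpiSC-1 in 6943 genes (62.7% of those tested) and from diploid EpiSC-2 in 7185 (64.9%), while the diploid lines differed from each other in 6065 (54.8%). Of these, 4544 genes (41.1%) moved the same way against both diploid lines, 2172 higher (19.6%) and 2372 lower (21.4%). The stricter rule, at least 2-fold against each diploid line, left 850 genes (7.68%), of which 462 were higher (4.17%) and 388 lower (3.51%). In 845 of the 850 (7.64% of tested genes) no haploid array overlapped any diploid array, and in 737 the diploid lines lay less than 2-fold apart. Of the 850, 386 were also called between the diploid lines, where 54.8% of all tested genes were called. The median SD within a line was 0.090 to 0.097 log2 units, so the 2-fold rule itself left little room for overlap. The share of all tested genes without overlap is not given here. At least 8-fold against each line, 46 genes were higher and 18 lower. Another 660 genes (5.96%) were called in opposite directions against the diploid lines, 9 of them by at least 2-fold each way (0.0813%). The median difference over all tested genes was -0.03 against diploid EpiSC-1 and -0.00 against diploid EpiSC-2 on the log2 scale. Counting arrays as independent understates the error between lines. When haploid EpiSC-2 was set against the mean of the diploid lines with the line as a random block, 1393 genes were called, 687 higher (6.21%) and 706 lower (6.38%). Those shares are the base for all later counts made with that block. Treating each line as 1 sample, by its mean, left 13 genes.

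**Figure D1:**
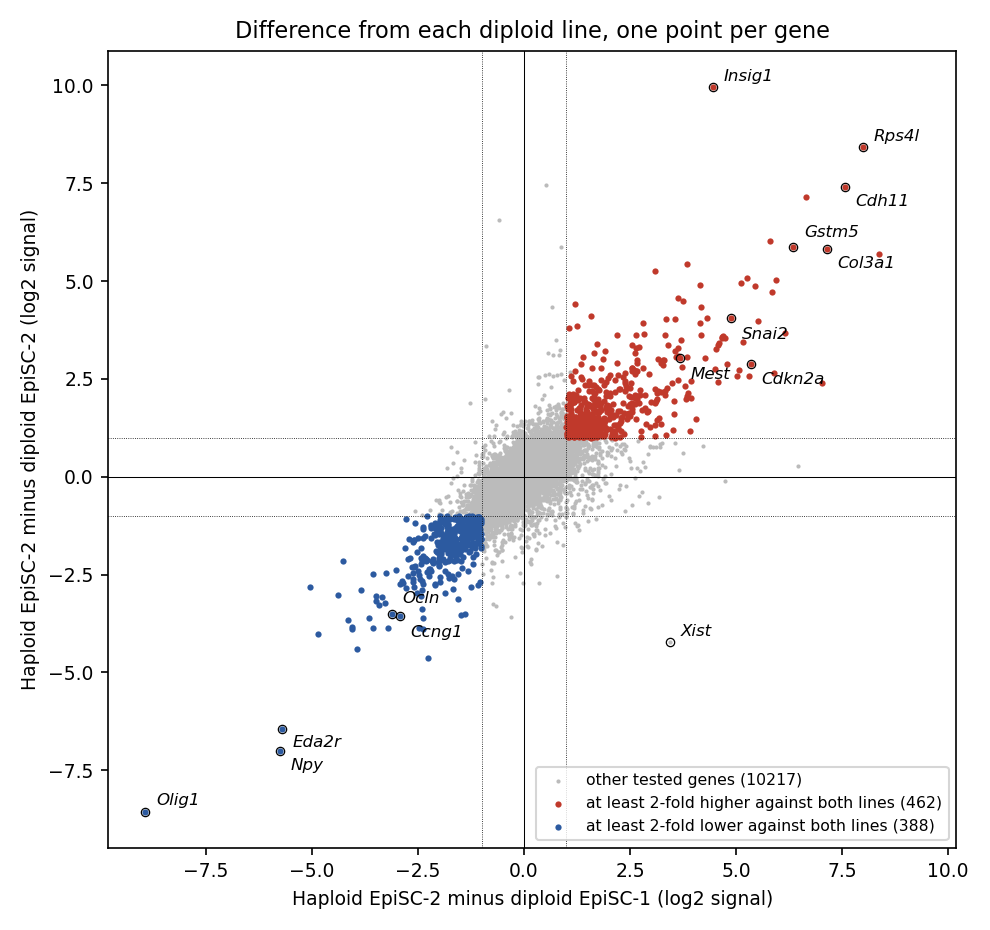
Each point is 1 of the 11067 tested genes, at its difference from diploid EpiSC-1 (x axis) and from diploid EpiSC-2 (y axis) in log2 signal, with dotted lines at 2-fold. The 462 genes in red and the 388 in blue passed the joint rule at 2-fold, and Xist lies apart in the lower right, above one diploid line and below the other.

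Matrix and mesenchymal genes gave many of the largest rises. The list of 29 tested fibroblast and matrix genes held 24 called higher and 0 lower, 18 of them by 2-fold or more, with medians of 3.05 and 1.97 log2 units against diploid EpiSC-1 and diploid EpiSC-2. Collagens rose in 18 of 19 tested, and genes of the mesenchymal transition in 17 of 21, with none called lower in either list. Over all tested genes the share called higher was 19.6%. With the line as a random block 17 fibroblast genes, 10 collagens and 14 mesenchymal genes were called, all higher. Over all tested genes 6.21% were higher with that block. The signal filter took the mean over all 9 arrays, so a gene dim in both diploid lines was tested only if haploid EpiSC-2 was bright. The share higher among tested members is therefore not a share of the whole family. Of 36 collagens on the array 19 were tested. Among the untested, Col8a1 was at 376 against 16.4 and 29.6, and Col9a1 at 28.1 against 38.7 and 49.8. The same filter applied to every other list. The lists overlap, and all were chosen with earlier results of these data known.

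Among collagens, Col3a1 (chromosome 1, Entrez 12825), a fibrillar collagen of stroma, read 7008, 6895 and 8024 on the haploid arrays. It was at 60.5, 43.62 and 51.33 in diploid EpiSC-1 and 122.8, 152 and 115.7 in diploid EpiSC-2. Every haploid array lay far above every diploid array. The differences were 7.15 ± 0.14 (SE, n = 3 against 3; adjusted p = 7.77e-13) and 5.82 ± 0.14 log2 units (adjusted p = 6.07e-12). Its fibrillar partner Col1a2 had mean signals of 5043 against 199 and 430, and Col5a2, which joins the same fibrils, 1068 against 23.1 and 68.2. Col4a1 and Col4a2, the paired chains of basement membrane collagen, rose together, by 2.85 and 3.33 log2 units against diploid EpiSC-1 and by 1.76 and 2.20 against diploid EpiSC-2. Nid1, which links basement membrane networks, rose as well (1624 against 183 and 592), whereas Lama3, a laminin chain of epithelia, fell (42.6 against 98.9 and 119), a call lost with the line as a random block. Of the whole laminin and basement membrane list, 4 of 18 were higher and 4 lower, near the shares over all tested genes (1 and 0 with the line as a random block).

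Acta2 (chromosome 19), smooth muscle actin, had the lowest p of all tested genes. Its signals were 13132, 12935 and 12825 in the haploid arrays, 509.3, 513.2 and 514 in diploid EpiSC-1 and 1113, 1114 and 1071 in diploid EpiSC-2. The matrix glycoprotein tenascin C, Tnc, read 3961 to 4097 in haploid EpiSC-2 and 54.13 to 181.4 over the diploid arrays. Postn, periostin, read 1184 to 1329 against 21.79 to 51.49. Neither gene overlapped between haploid and diploid arrays.

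Regulators and adhesion genes of the mesenchymal transition followed. Snai2 (chromosome 16, Entrez 20583), a zinc finger repressor of epithelial genes, read 1444, 1415 and 1420 against 45.51, 46.53 and 52.12 in diploid EpiSC-1 and 89.56, 74.41 and 95.3 in diploid EpiSC-2. The differences were 4.89 ± 0.14 (adjusted p = 1.92e-11) and 4.05 ± 0.14 (adjusted p = 1.23e-10). Twist1, a helix-loop-helix factor of mesenchyme, rose from mean signals of 28.5 and 60.9 to 738. Cdh11, the cadherin of mesenchyme, read 2224, 2393 and 2317 against 7.52 to 18.16 over all 6 diploid arrays, which lie in the background range. N-cadherin, Cdh2, was already at mean signals of 1618 and 1736 in the diploid lines and stood at 4678. The adhesion molecule Ncam1 read 2091 against 116 and 171, Emp1, a membrane protein, 2420 against 7.25 and 47.1, and the matrix protein Tgfbi 1787 against 32.2 and 27.5.

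The rise did not cover every mesenchymal gene. Vim, the intermediate filament vimentin, read 17082 in haploid EpiSC-2, 5272 in diploid EpiSC-1 and 19162 in diploid EpiSC-2, a rise of 1.70 against the first and a fall of 0.17 against the second (adjusted p = 0.0149). Fn1, fibronectin, rose by 1.84 and 0.66. Thy1, a fibroblast surface antigen, was at 117 against 202 and 108 and was not called. The labels do not say whether any line was grown on feeder cells. The summed signal of 10 defining fibroblast markers was 16899 to 17608 in haploid EpiSC-2, 630.7 to 756.4 in diploid EpiSC-1 and 1004 to 1057 in diploid EpiSC-2. Of the 9 tested, 8 were called higher, against 19.6% of all tested genes. Of the 10, 8 were under a signal of 64 in diploid EpiSC-1, 5 in diploid EpiSC-2 and 0 in haploid EpiSC-2. Passing the filter thus leaned on the haploid arrays. Over the 34 listed fibroblast genes on the array the sums were 83163 to 85017, 14712 to 15394 and 43607 to 44066. Of these 34, 1 was under a signal of 64 in haploid EpiSC-2, 17 in diploid EpiSC-1 and 11 in diploid EpiSC-2. The part of fibroblasts in these results was not tested, and in RNA from whole cultures a change in the number of cells of a type and in RNA per cell cannot be told apart.

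Epithelial genes moved the other way. Of 30 tested, 22 were called lower against both diploid lines and 0 higher, 9 of them by at least 2-fold, with medians of -0.85 and -1.34; over all tested genes 21.4% were lower. With the line as a random block 16 were lower and 0 higher, against 6.38% lower and 6.21% higher over all tested genes. The falls were graded. E-cadherin, Cdh1, kept a high signal of 5828, 5671 and 6328, against 10540, 11560 and 10656 in diploid EpiSC-1 and 15820, 15640 and 14558 in diploid EpiSC-2, falls of 0.88 and 1.37 on the log2 scale. Epcam, an epithelial surface adhesion molecule, fell by a like amount (5955 against 12368 and 13809). Some tight junction genes fell further. Occludin, Ocln (chromosome 13, Entrez 18260), read 104.5, 104.7 and 71.82 against 786, 791.3 and 822.2 and 995.3, 1050 and 1080, differences of -3.12 ± 0.13 (adjusted p = 5.68e-10) and -3.50 ± 0.13 (adjusted p = 2.65e-10). Claudin 7, Cldn7, read 741 against 4822 and 2226, and the polarity protein Crb3 209 against 921 and 890. Other tight junction genes of the list fell less, such as claudin 6, Cldn6, by 1.37 and 0.82, or were not called, such as Tjp1 and Cldn3. The membrane proteases St14 and Prss8, which act in one cascade of epithelia, had mean signals of 228 against 1405 and 1396, and of 159 against 560 and 494. Grhl2, an activator of epithelial junction genes, fell by 1.70 and 1.49. Krt8 and Krt18, the keratin pair of simple epithelia, rose against diploid EpiSC-1 (by 0.49 and 0.23) and fell against diploid EpiSC-2 (by 1.21 or more each), and so were not among the joint calls.

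**Figure D2:**
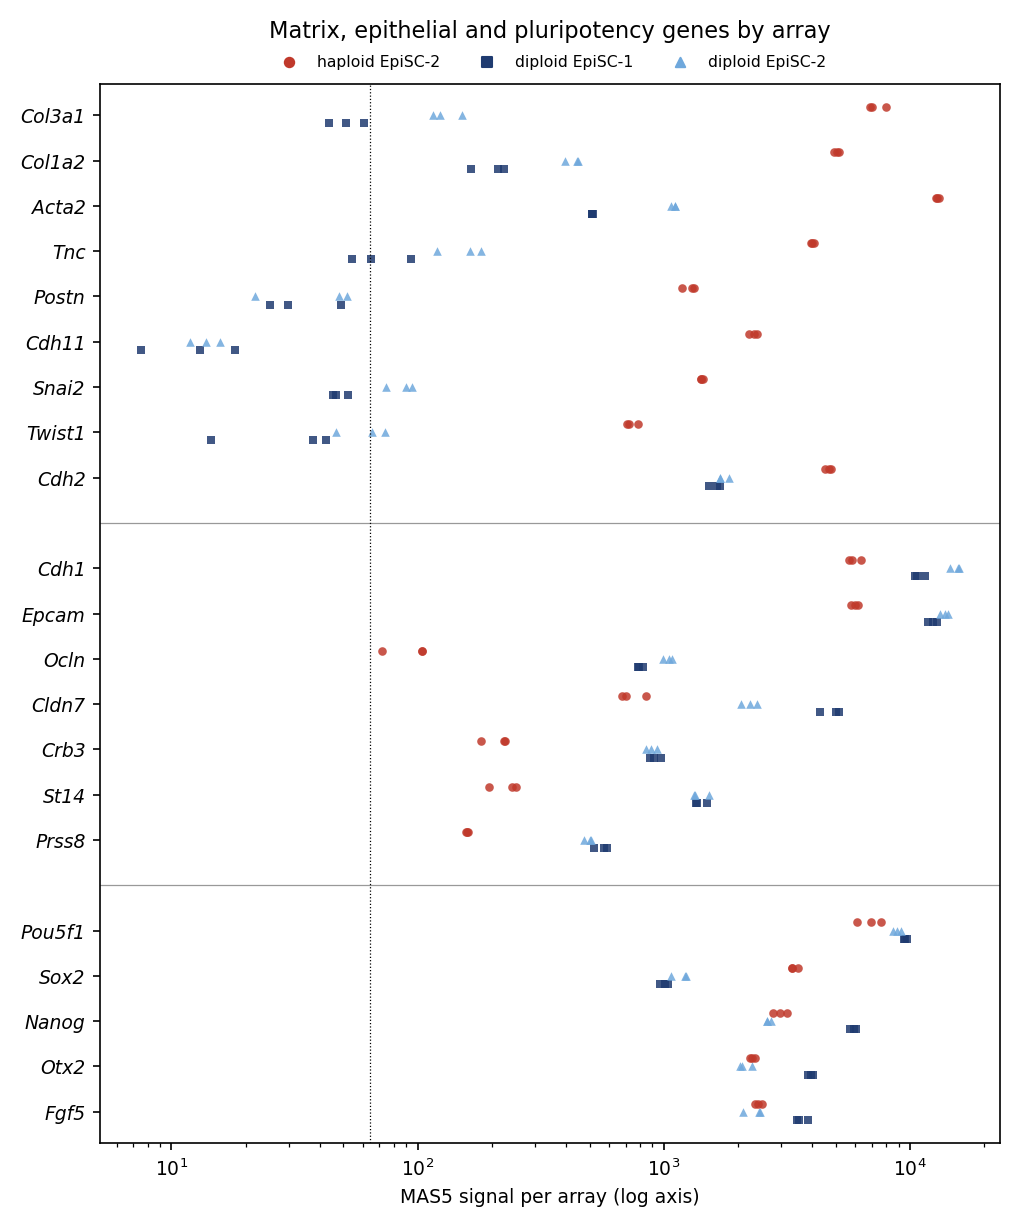
Signals of single arrays on a log axis for matrix and mesenchymal genes (top), epithelial genes (middle) and pluripotency genes (bottom), with 3 arrays per line and a dotted line at a signal of 64. Haploid arrays lie to the right of both diploid lines for every gene of the top block and to the left for every gene of the middle block, whereas Nanog, Otx2 and Fgf5 lie at or near diploid EpiSC-2.

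Snai-family and Zeb repressors are known to bind the letters CAGGTG, an E-box, and the start regions of genes were therefore read for it. Of these repressors Snai2 rose, as given above, while Snai1 was under the filter, at 58.1 against 36.1 and 39.8. Signals of the Zeb genes are not given here. The windows run from 250 bases before to 50 after a start site in RefSeq (assembly GRCm38.p6). Shown are 4 windows that hold the letters, from junction and adhesion genes that fell by at least 2-fold. Ocln, Crb3 and Cldn7 have 2 windows each, of which 1 is shown. The other Cldn7 window holds no match, and the other Ocln window holds 1. Tjp3, a junction gene also at least 2-fold lower, is not shown. Capitals mark CAGGTG or its reverse complement CACCTG.
Ocln (chr13:100552449-100552748, minus strand): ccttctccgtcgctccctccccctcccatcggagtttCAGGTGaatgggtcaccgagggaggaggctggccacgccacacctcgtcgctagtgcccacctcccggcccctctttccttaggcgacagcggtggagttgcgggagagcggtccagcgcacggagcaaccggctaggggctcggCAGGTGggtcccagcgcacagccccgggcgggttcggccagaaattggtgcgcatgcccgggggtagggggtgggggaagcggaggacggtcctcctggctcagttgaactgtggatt
Crb3 (chr17:57061951-57062250, plus strand): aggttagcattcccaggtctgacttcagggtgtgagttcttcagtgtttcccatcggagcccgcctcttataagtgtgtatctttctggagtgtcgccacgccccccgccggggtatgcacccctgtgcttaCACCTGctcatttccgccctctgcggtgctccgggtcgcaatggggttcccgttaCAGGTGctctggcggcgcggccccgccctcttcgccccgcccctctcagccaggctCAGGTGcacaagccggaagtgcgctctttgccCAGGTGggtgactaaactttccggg
Cldn7 (chr11:69965171-69965470, plus strand): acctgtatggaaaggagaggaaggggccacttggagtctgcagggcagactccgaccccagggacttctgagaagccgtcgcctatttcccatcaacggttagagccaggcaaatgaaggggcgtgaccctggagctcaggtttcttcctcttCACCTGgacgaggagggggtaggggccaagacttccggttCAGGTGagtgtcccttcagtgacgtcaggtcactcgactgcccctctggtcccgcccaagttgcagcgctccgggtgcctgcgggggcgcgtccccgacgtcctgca
Epcam (chr17:87635729-87636028, plus strand): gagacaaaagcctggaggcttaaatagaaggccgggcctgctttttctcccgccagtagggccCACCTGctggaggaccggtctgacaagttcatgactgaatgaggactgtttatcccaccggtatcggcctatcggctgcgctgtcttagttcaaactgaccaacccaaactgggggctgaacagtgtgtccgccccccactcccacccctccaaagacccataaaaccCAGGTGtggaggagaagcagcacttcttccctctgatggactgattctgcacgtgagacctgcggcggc
The Ocln window shown holds 2 matches, whose first bases lie 213 and 68 bases before the start site. The Crb3 window holds 4, Cldn7 2 and Epcam 2, the last with a match 19 bases before the start.

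The letters were common among epithelial genes whether or not they fell. Of the 20 tested epithelial genes with a window, 16 hold CAGGTG on either strand (80%), and of the 13 that were called lower, 10 do (76.9%). Among tested genes with a window, 1885 of 9012 hold it (20.9%), and among all 27025 genes with a window in RefSeq 22.6% do. It was found in 107 of the 307 genes at least 2-fold lower (34.9%) and in 56 of the 353 at least 2-fold higher (15.9%), against 20.2% of genes not called. Without the epithelial list the share among the 2-fold lower genes was 33.8%. A related E-box with other central letters, CAGCTG, was in 18.6% of the lower and 19.3% of the higher genes, against 17.2% of those tested. These are counts of letters, on which no test was run.

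Targets of p53 fell as a group. Of 32 tested, 24 were called lower, 15 of them by at least 2-fold, and 1 was higher, with medians of -1.05 and -1.37. Over all tested genes 21.4% were lower and 3.51% at least 2-fold lower. With the line as a random block 22 were lower and 1 higher, against 6.38% lower and 6.21% higher over all tested genes. Ccng1, cyclin G1 (chromosome 11, Entrez 12450), read 1316, 1239 and 1222 against 9511, 9889 and 9342 in diploid EpiSC-1 and 15065, 15020 and 14716 in diploid EpiSC-2. The differences, -2.93 ± 0.04 (adjusted p = 1.07e-13) and -3.57 ± 0.04 (adjusted p = 1.32e-14), were far larger than the spread within a line. Psrc1, a spindle-associated target, fell by 2.63 and 2.32. Cdkn1a, the inhibitor that stops the cycle after damage, read 257.1, 257.7 and 265.2 against 1429, 1282 and 1335 and 3885, 3668 and 3931. Mdm2, the ubiquitin ligase that removes p53, fell less, by 0.69 and 1.55. Eda2r, a receptor of the TNF receptor family, was at 32.26, 2.923 and 22.97 in haploid EpiSC-2, in the background range, against 673 and 1120 on average. Trp53inp1, Zmat3 and Phlda3, an Akt inhibitor, each fell by at least 1.85 log2 units against both lines. Tigar, a regulator of glycolysis, fell by 1.71 and 1.85, but its 2 other tested probe sets ranged from -0.70 to 0.76 against diploid EpiSC-1 and from -0.21 to 0.20 against diploid EpiSC-2. The cell death gene Bbc3 fell by 1.15 and 1.23.

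Against these falls stood 2 genes that are also known as stress or p53 targets. Gadd45g, of the growth arrest family, was the only member of the list called higher, by 3.48 and 2.39. Pmaip1, the cell death protein Noxa, read 3094, 2918 and 2817 in haploid EpiSC-2 and 1.764 to 17.68 over the 6 diploid arrays. Its mean over all arrays fell under the signal filter, so it was not among the genes tested. No test is given for it. Of the 24 tested Bcl2-family and cell death genes 4 were higher and 7 lower, with medians of -0.01 and -0.14 (1 and 4 with the line as a random block), near the shares of 19.6% and 21.4% over all tested genes. Xiap, an X-linked inhibitor of caspases, rose by 0.83 and 0.78, though 1 of its 2 other tested probe sets gave -0.27 against diploid EpiSC-2. Bik, a cell death protein, fell by 1.02 and 1.77, a call lost with the line as a random block.

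Inhibitors of the G1 kinases Cdk4 and Cdk6 moved opposite to Cdkn1a. Cdkn2a (chromosome 4, Entrez 12578), whose locus encodes p16 and Arf, read 1740, 1937 and 1770 against 36.98, 35.82 and 64.41 in diploid EpiSC-1 and 256.7, 219.3 and 259.8 in diploid EpiSC-2. The differences were 5.36 ± 0.19 (adjusted p = 1.37e-10) and 2.89 ± 0.19 (adjusted p = 4.02e-08). Its neighbour Cdkn2b rose by 2.80 and 1.71, and Cdkn2c by 1.72 and 1.65, although the Cdkn2c call was lost with the line as a random block. Ccne1, cyclin E1, fell by 1.98 and 1.81, but its other tested probe set gave only -0.64 and -0.47. On the probe set used, 1 haploid array, at 1573, stood above the others, at 734.6 and 726.4, and below every diploid array. Bmi1, a Polycomb protein that represses the Cdkn2a locus, was higher (736 against 133 and 240). Of 37 tested genes of G1/S and replication, 8 were higher and 6 lower. Among 43 genes of mitosis and the spindle, 18 were lower and 3 higher, with small medians of -0.20 and -0.19, and among 36 genes of DNA damage signalling and repair 14 were lower and 1 higher. Over all tested genes 19.6% were higher and 21.4% lower. Many of these calls were lost with the line as a random block, as over all tested genes, where it left 6.38% lower and 6.21% higher. The block left 6 lower and 0 higher in mitosis, 8 lower and 0 higher in DNA damage, and 6 higher and 2 lower in G1/S. Hmmr and Nuf2, spindle and kinetochore proteins, and the repair genes Atr and Chek2 were among those that fell, by 0.69 to 1.20 log2 units.

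**Figure D3:**
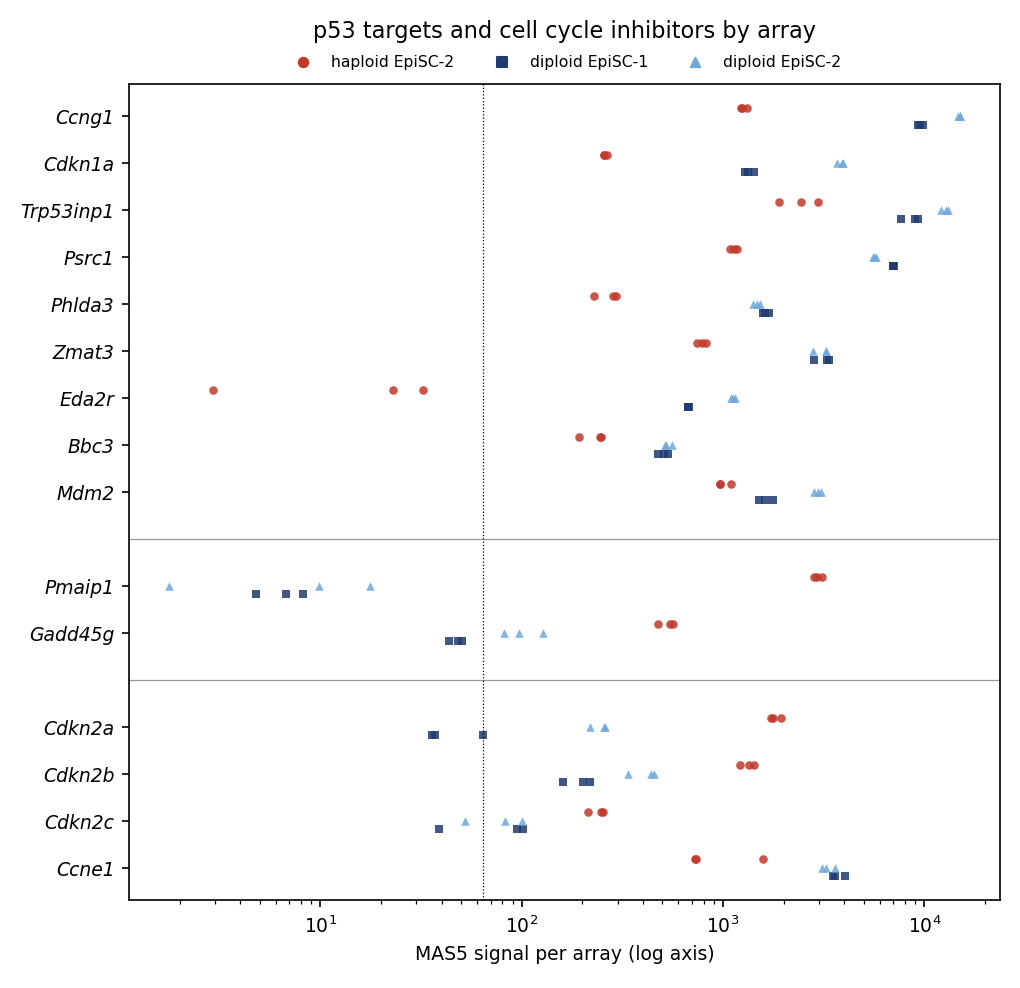
Signals of single arrays on a log axis for p53 targets that fell (top), Pmaip1 and Gadd45g (middle) and Cdkn2 genes with Ccne1 (bottom), with 3 arrays per line and a dotted line at a signal of 64. For every gene shown the haploid arrays lie apart from both diploid lines, with Pmaip1 at 2817 or more against 17.68 or less.

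The label of a pluripotent epiblast line was checked against its markers. Pou5f1, the core pluripotency factor, read 6083, 6951 and 7620 against 9710, 9498 and 9578 and 8542, 8845 and 9250, falls of 0.49 and 0.37, a call that was lost with the line as a random block. Sox2, its partner, was the other way, at 3324, 3323 and 3500 against 1009, 1041 and 964.4 and 1234, 1220 and 1072, rises of 1.75 ± 0.06 (adjusted p = 1.37e-10) and 1.53 ± 0.06 (adjusted p = 5.94e-10). Nanog lay below diploid EpiSC-1 (by 0.98) and slightly above diploid EpiSC-2 (by 0.16). The summed signal of 8 pluripotent epiblast markers was 30715 to 32994 in haploid EpiSC-2, 42592 to 43105 in diploid EpiSC-1 and 37192 to 39284 in diploid EpiSC-2, and none was under a signal of 64 in any line. Tdgf1, the Nodal co-receptor Cripto, fell by 1.05 and 1.38.

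Of 24 tested primed epiblast genes, 5 were higher and 5 lower against both diploid lines, close to the shares over all tested genes (2 and 3 with the line as a random block). Otx2, the primed epiblast regulator, read 2280, 2355 and 2235 against 3971, 3863 and 4052 in diploid EpiSC-1 and 2048, 2076 and 2275 in diploid EpiSC-2. It was lower than the first (adjusted p = 2.84e-08) and did not pass the test against the second (adjusted p = 0.0885). Fgf5 read 2423 against 3617 and 2326, lower than diploid EpiSC-1 (adjusted p = 5.86e-06) and not called against diploid EpiSC-2 (adjusted p = 0.442). Dnmt3b, a de novo methyltransferase, fell by 1.04 and 0.45, though its other tested probe set gave 0.25 against diploid EpiSC-2. Dnmt3l, its cofactor, was higher from a low base (197 against 43.9 and 78.8), a call lost with the line as a random block. Of the 11 naive genes tested, 3 were higher and 2 lower (1 and 2 with the line as a random block). Zfp42 was at 107 against 18.6 and 14.5 and did not pass the filter, Esrrb was near background in all lines (58.1, 53.3 and 75.9), and Klf4 rose by 1.61 against diploid EpiSC-1 but missed the threshold against diploid EpiSC-2 (adjusted p = 0.0511). The LIF receptor Lifr rose by 1.61 and 2.33, and Fgf4, the FGF ligand of pluripotent cells, fell by 1.84 and 1.56.

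Of the signalling lists, BMP and Wnt had members called higher and none called lower. BMP ligands and targets were higher in 11 of 20 tested and lower in 0, with medians of 0.90 and 0.80. Over all tested genes 19.6% were higher and 21.4% lower, the base for each list of this paragraph. With the line as a random block 7 BMP genes were higher, against 6.21% over all tested genes. Bmp4 (chromosome 14, Entrez 12159), a ligand that posteriorises the epiblast, read 1718, 1513 and 1709 against 175.7, 140.5 and 191.1 and 230.4, 211.5 and 183.3, differences of 3.29 ± 0.13 and 2.99 ± 0.13. Its direct targets Id1 and Id3, inhibitors of helix-loop-helix factors, rose by 2.10 and 1.48 against diploid EpiSC-1 and by 1.53 and 1.66 against diploid EpiSC-2. Of the Wnt list 14 of 31 were higher and 0 lower (6 higher with the line as a random block), led by the non-canonical ligand Wnt5a (674, 639.2 and 577.5 against 22.6 to 73.44 over the diploid arrays). The list also held secreted inhibitors among its rises, such as Frzb (1.73 and 3.39) and Dkk3 (2.39 and 2.18), and the intracellular inhibitor Nkd1 (1.76 and 2.22). In the Nodal and Activin list 8 of 22 were higher and 2 lower (5 and 1 with the line as a random block). The Nodal antagonist Lefty1 (0.92 and 1.35), the Activin subunit Inhba (2.22 and 1.23) and the Activin-binding Fst (1.56 and 1.81) rose. Nodal itself was at 2378, 2310 and 2726. Of the FGF and ERK feedback list 10 of 26 were higher and 2 lower (6 and 1 with the line as a random block). The feedback genes Dusp4 and Spry4 rose by 1.64 and 1.35 against diploid EpiSC-1 and by 1.80 and 1.61 against diploid EpiSC-2, whereas Fgf4 fell, as given above.

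Germ layer markers were mixed in level. Streak and mesoderm genes were higher in 7 of 13 tested and lower in 0, against 19.6% and 21.4% over all tested genes, and higher in 3 with the line as a random block, with Sp8 and Nkx1-2 rising by 2.65 and 1.25 against diploid EpiSC-1 and by 1.47 and 3.86 against diploid EpiSC-2. Definitive endoderm genes were higher in 6 of 14 and lower in 2 (3 and 0 with the line as a random block). Sox17, an endoderm factor, read 1413, 1360 and 1249 against 595.6, 653.6 and 622.5 and 402.6, 358 and 350.9, and the pioneer factor Foxa1 943 against 181 and 180. Of neuroectoderm genes, 6 of 13 were higher and 4 lower (5 and 3 with the line as a random block). The 2 deepest falls of all genes by the ranking used here were of this list. Npy, a neuropeptide, read 87, 68.77 and 22.51 against 2903, 2534 and 2829 and 6149, 6761 and 7008. Olig1, a glial and neural progenitor factor, read 4.853, 1.531 and 12.55 against 2181, 2214 and 2223 and 1756, 1597 and 1777. Zic1, a neural zinc finger factor, ran the other way, at 849.1, 890.6 and 881.4 against 0.8153 to 20.05 over the diploid arrays, and was under the filter.

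Hox genes, which mark position along the body axis, were mostly too dim in the diploid lines to be tested. Of 36 Hox and caudal genes on the array, 5 were tested and 4 of these were higher, by at least 2-fold each. Over all tested genes 19.6% were higher and 4.17% at least 2-fold higher. Hoxd9 read 470.9, 460 and 446.1 against 20.02 to 33.86 over the diploid arrays; the calls of Hoxb2, Hoxd8 and Hoxd13 were lost with the line as a random block. With the filter on the brightest line, 16 of 23 tested were higher and 0 lower, against 2377 higher and 2475 lower of all 12022 genes tested with it. Among those that entered were Hoxa10 (314 against 10.7 and 13.1), Hoxb9 (257 against 9.15 and 11.8), Hoxd10 (265 against 7.59 and 6.22) and the caudal gene Cdx2 (357 against 16 and 7.42). A filter on the brightest line lets in genes that are bright in a single line, so these counts give no support beyond the signals themselves.

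Imprinted genes are expressed from the chromosome of a single parent, and a haploid genome carries the imprints of whichever parent it came from, which the labels do not name. Of 20 tested genes listed as expressed from the paternal copy, 11 were higher and 4 lower, with medians of 0.90 and 0.72. Over all tested genes 19.6% were higher and 21.4% lower. With the line as a random block 9 of the list were higher and 1 lower, against 6.21% and 6.38% over all tested genes. Mest (chromosome 6, Entrez 17294), a hydrolase of growing embryonic mesoderm, read 9250, 8918 and 8936 against 704.4, 733.1 and 674.8 and 967, 1208 and 1157, differences of 3.68 ± 0.07 and 3.03 ± 0.07. Ndn and Peg12, of the cluster on chromosome 7, rose by 1.82 and 4.58 against diploid EpiSC-1 and by 1.70 and 3.36 against diploid EpiSC-2. Sgce and Zdbf2 rose by 1.03 or more against each line, and Slc38a4, an amino acid transporter, by 1.82 and 1.34. Plagl1, a zinc finger factor, went the other way, falling by 0.62 and 1.38. Igf2 was at 782 against 428 and 782 and was not called. Impact rose by 2.48 and 1.60, but its other tested probe set gave -0.04 and -0.89.

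Of 24 tested genes listed as expressed from the maternal copy, 4 were higher and 7 lower, with medians of -0.22 and -0.26 (0 and 5 with the line as a random block). Without that block the counts lie near the shares over all tested genes, 19.6% higher and 21.4% lower. With it, 6.21% of all tested genes were higher and 6.38% lower. Grb10 (chromosome 11, Entrez 14783), an adaptor that restrains insulin signalling, read 1836, 1780 and 1834 against 9117, 9295 and 9161 and 8014, 7518 and 8258. Igf2r, the clearance receptor for Igf2, fell by 1.41 and 1.28, and Phlda2, a growth restrainer of placenta, by 2.49 and 1.57. Dcn, 1 of the 4 listed genes called higher, was at 444 against 51.9 and 11.5, a call lost with the line as a random block. The paternal noncoding RNAs that lie across Igf2r and near Phlda2, Airn and Kcnq1ot1, were both high in haploid EpiSC-2 and dim in the diploid lines, where they fell under the filter. Airn read 433.4, 425.7 and 455.6 against 5.604 to 37.51, and Kcnq1ot1 514.2, 435.8 and 505.6 against 1.741 to 52.19. Both were named after their values were seen, and no test is given for them. Other paternal genes under the filter varied, with Nnat at 324 against 5.71 and 15.4 and Peg10 at 45.5 against 16.1 and 43.3. Of the insulin and IGF list, which also holds Grb10 and Igf2r, 11 of 21 were higher and 4 lower (6 and 2 with the line as a random block). Over all tested genes 19.6% were higher and 21.4% lower. The receptor substrates Irs1 and Irs4 were at 2774 against 858 and 730 and at 1464 against 465 and 165. The binding protein Igfbp5 was at 2026 against 162 and 84.9, differences of 3.64 and 4.58, but its other tested probe set gave 1.02 and 0.78.

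**Figure D4:**
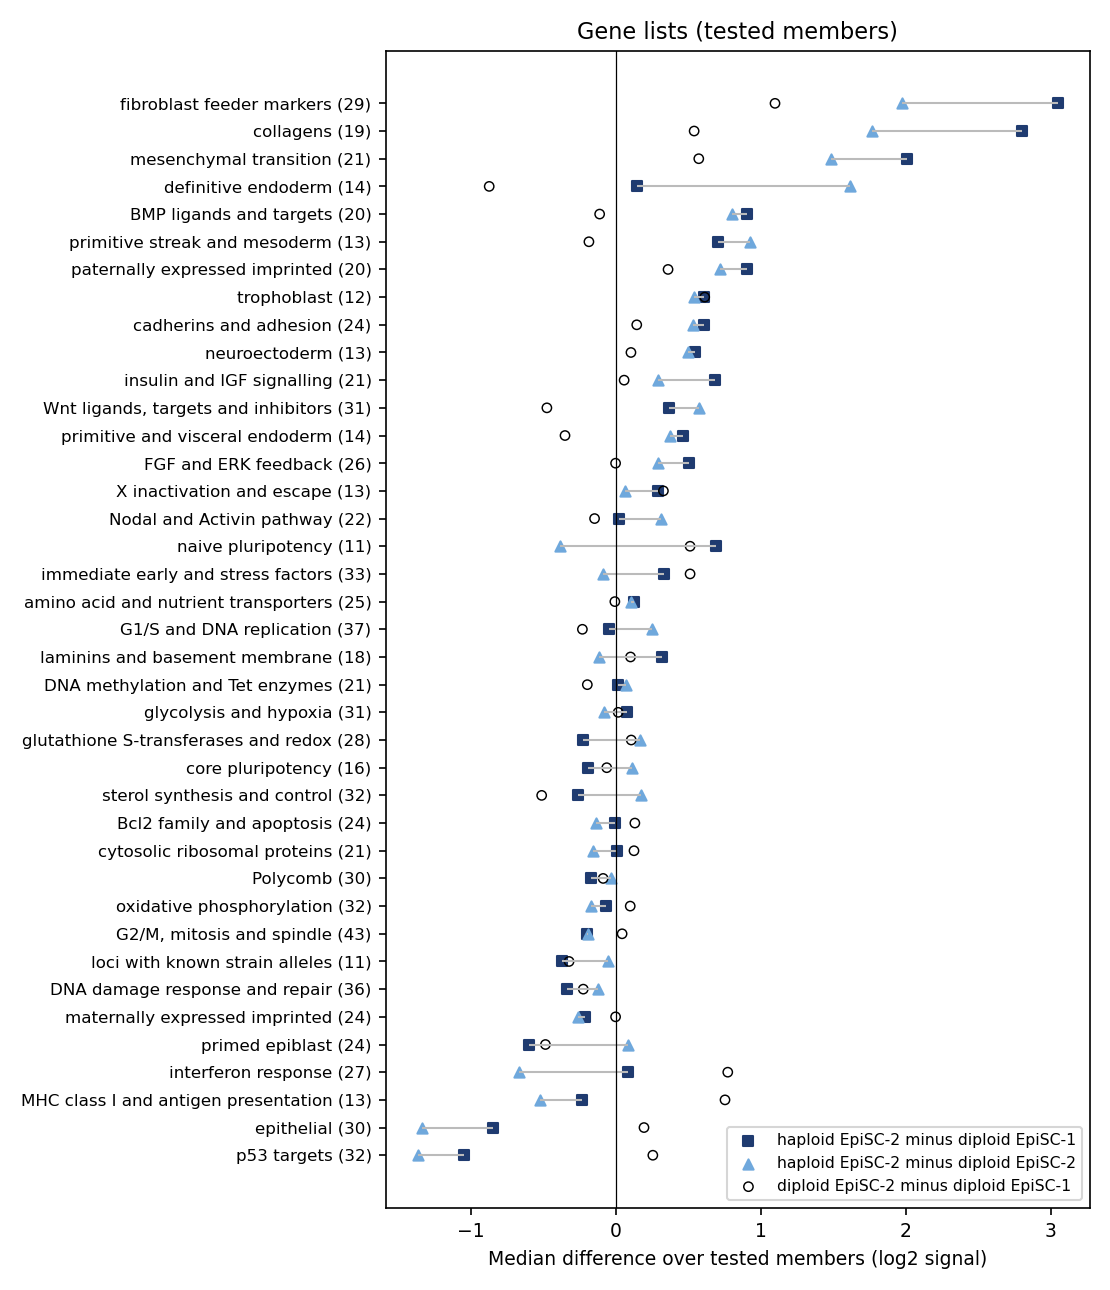
Median difference in log2 signal over the tested members of each gene list with at least 10 of them, for haploid EpiSC-2 minus diploid EpiSC-1 (squares), haploid EpiSC-2 minus diploid EpiSC-2 (triangles) and diploid EpiSC-2 minus diploid EpiSC-1 (open circles). Matrix and mesenchymal lists lie at the top, with fibroblast genes at 3.05 and 1.97, and epithelial genes and p53 targets at the bottom, with the other lists between them.

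The calls were not spread evenly over the chromosomes. On the X chromosome 172 of 377 tested genes were higher (45.6%) and 20 lower (5.31%), with medians of 0.40 against diploid EpiSC-1 and 0.36 against diploid EpiSC-2. On chromosome 11 the counts ran the other way, with 385 of 918 lower (41.9%) and 62 higher (6.75%) and medians of -0.42 and -0.26. On the remaining autosomes 13.2% to 25.5% of tested genes were higher and 15.4% to 27.1% lower. Most of the X-linked and chromosome 11 calls were under 2-fold: 36 X-linked genes were at least 2-fold higher, and 52 genes of chromosome 11 at least 2-fold lower, Ccng1, Grb10, Cldn7 and Dcxr among them. The same directions held with the line as a random block, with 82 X-linked genes higher and 5 lower, and 152 genes of chromosome 11 lower and 16 higher. Over all tested genes that block left 6.21% higher and 6.38% lower. The DNA content of the lines was not measured here.

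**Figure D5:**
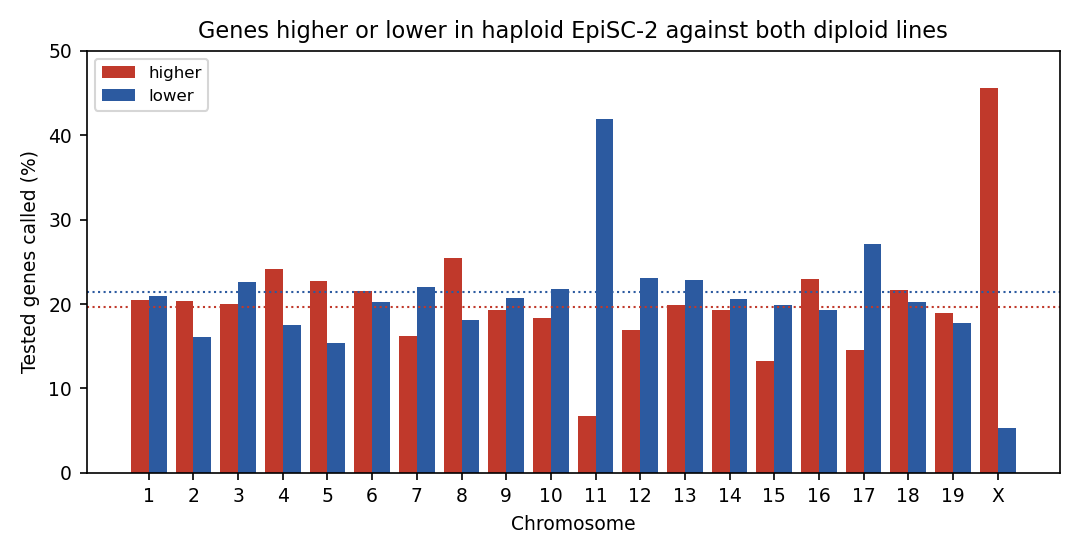
Percentage of tested genes on each chromosome called higher (red) or lower (blue) against both diploid lines, with dotted lines at 19.6% and 21.4%, the shares over all tested genes. The X stands out with 45.6% higher, and chromosome 11 with 41.9% lower.

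Xist separated all 3 lines. The RNA, which coats the inactive X, read 636.9, 580.6 and 632 in haploid EpiSC-2, 58.36, 61.86 and 50.12 in diploid EpiSC-1 and 11996, 10036 and 12642 in diploid EpiSC-2. Haploid EpiSC-2 was thus 3.44 log2 units above one diploid line and 4.22 below the other, the largest pair of opposite differences. Eif2s3y, a Y-linked translation factor, was at 3006, 3119 and 2841 in diploid EpiSC-1 and at 18.02 or less on every array of haploid EpiSC-2 and diploid EpiSC-2. Of 13 tested genes of X inactivation and escape, 4 were higher against both lines and 0 lower (2 and 0 with the line as a random block). The share higher was 19.6% over all tested genes and 45.6% over those of the X, and the shares lower were 21.4% and 5.31%. Among the 4 were Zfx (0.82 and 0.58) and Utp14a (0.70 and 1.09). The other large opposite differences were in Wnt9a (1.29 above and 1.37 below) and Wdr31 (1.27 below and 1.89 above).

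The largest rise by the ranking, which sets mean signals under 64 to 64, was in Rps4l (chromosome 6, Entrez 66184), a ribosomal protein S4 paralog. It read 8315, 8533 and 9276 in haploid EpiSC-2 and 16.44 to 47.79 over the diploid arrays, 136-fold with that floor. Of the 21 tested cytosolic ribosomal protein genes it was the only one higher, and 4 were lower. Over all tested genes 19.6% were higher and 21.4% lower. Rps4l and Gbp2b, an interferon-induced GTPase (1757, 1855 and 1751 against 3.669 to 24.78), are on a list of loci known to vary in expression between mouse strains, of which 4 of 11 tested were higher and 4 lower. Differences in sequence between the strains under the probes were not tested.

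Gstm5 (chromosome 3), a glutathione transferase, was the third in rank, at 2846, 2788 and 2829 against 28.9 to 62.06. Other members of the list went either way, Mgst1 rising (627 against 8.82 and 49.4) and Gstm6 falling (45.7 against 276 and 141); over 28 tested, 3 were higher and 4 lower (1 and 0 with the line as a random block), and the calls of Mgst1 and Gstm6 were lost with the line as a random block. Insig1, which holds back sterol synthesis, read 4104, 3906 and 4114 against 183, 204.8 and 163.8 in diploid EpiSC-1, and 0.727, 7.178 and 12.77 in diploid EpiSC-2, where it was in the background range. Its call was also lost with the line as a random block. Scd1, a fatty acid desaturase, rose by 1.59 and 4.11, while the sterol list as a whole had 7 of 32 higher and 7 lower (2 and 5 with the line as a random block). Over all tested genes 19.6% were higher and 21.4% lower. Without the block the sterol counts lie near those shares and the glutathione counts below them. Slc1a5, the glutamine transporter, fell to 122.8, 132.4 and 149.4 from 1644, 1557 and 1371 and 1092, 1087 and 1130. These are differences of -3.50 and -3.04, but its other tested probe set gave -1.73 and -0.73.

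Immune genes were divided. Of 27 tested interferon response genes, 6 were higher and 8 lower, near the shares over all tested genes (3 and 2 with the line as a random block). Trim25, a ubiquitin ligase of RNA sensing, rose by 3.33 and 3.63, and Gbp2b by more, while the interferon-induced Oasl2 was at 72.0 against 204 and 256, a call of lower that was lost with the line as a random block. Of MHC class I and antigen presentation genes 7 of 13 were lower and 1 higher (3 and 0 with the line as a random block). Over all tested genes 21.4% were lower and 19.6% higher. The immunoproteasome subunit Psmb9 read 216.3, 179.4 and 216.1 against 924.9, 957 and 938.7 and 1069, 1015 and 1020, and the peptide transporter Tap1 fell by 1.46 and 2.34. These lists hold a strain-variable locus and differ between the diploid lines too, with a median of 0.75 for antigen presentation genes in diploid EpiSC-2 minus diploid EpiSC-1. Of 32 oxidative phosphorylation genes, 10 were lower and 1 higher, with medians of -0.07 and -0.17 (3 and 0 with the line as a random block). Of 31 glycolysis and hypoxia genes 8 were lower and 6 higher (5 and 0 with the line as a random block), near the shares of 21.4% and 19.6% over all tested genes. Aldoc, an aldolase, fell (824 against 3322 and 2022).

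The remaining genes with the deepest falls were of varied function. Dcxr, a dicarbonyl and xylulose reductase, was at 107 against 1649 and 2244, and Zfp365, a zinc finger protein, at 78.6 against 838 and 762. The brain-type carnitine palmitoyltransferase Cpt1c was at 142 against 1017 and 924, and Nmnat2, an NAD-synthesising enzyme of axons, at 114 against 1097 and 626. Ddias, an anti-apoptotic gene, was at 172 against 952 and 984, and the interferon-inducible Ifi27l2a at 139 against 802 and 1089. The Ddias differences were -2.46 and -2.51, but its other tested probe set gave -1.11 and -0.82. Among further rises, the protocadherin Pcdh19 was at 1573 against 35.9 and 53.2, Serpinf1, a secreted serpin, at 2179 against 109 and 132, and Epdr1 at 1041 against 58.7 and 34.9. Low signals carry little information on level: 85 of the 2-fold higher genes had both diploid means under 64, and 131 of the 2-fold lower genes had the haploid mean under it, so their folds rest on values near the background. Of the 850 genes, 279 had further tested probe sets, which all agreed in direction for 243 and included one in the opposite direction for 14.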

How the data were processed

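RNA of 9 cultures was measured on an Affymetrix array with MAS5, per the submitters' processing notes; the sources used here do not give its version. The authors' deposited values are linear intensity signals, set to a trimmed mean of 500 (2% off each end), without detection calls. Of 45101 probe sets, 34945 have a single symbol in GEO's platform annotation. Signals were taken as log2 with no pseudocount, and the brightest of a gene's probe sets stood for it.

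Differences were fitted with limma 3.58.1 in R 4.3.3 as 3 line means over 9 arrays (lmFit, eBayes with an intensity trend), with Benjamini-Hochberg adjustment over 11067 genes within each contrast. The joint rule was also run on simulated data. There, unchanged genes were set midway between the diploid lines and only spread between arrays was added. Such data cannot show how often the rule calls a gene through spread between lines. Lists (42, with 1171 of 1274 entries matched) are described by counts and medians, without a set test. The members and lists were chosen with earlier results of these data known. Named genes are the 15 highest and 15 lowest by the smaller of their differences (means floored at a signal of 64, at least 2-fold, no overlap of arrays), up to 4 called members of each list, the 3 largest opposite differences, the 3 lowest p and a fixed panel; genes such as Twist1, Prrx1, Epcam, Cldn7, Cdkn1a, Zmat3, Vim, Nodal and those under the filter were named after their values were seen. Replicate numbers were not treated as pairs in the main fit. Alternatives were other scalings, filters, probe set rules, blocks and leaving out each array. The number of arrays limits the precision. Scan dates were not used here.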

Additional observations from a re-analysis of the deposited data

How the results depend on the processing

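All counts refer to the 11067 genes of the main setting unless said otherwise. With the line as a random block (correlation between arrays of a line 0.707) 687 genes were higher, 706 lower and 1393 in all. With line means as units 9 were higher, 4 lower and 13 in all, all of them at least 2-fold (9 and 4). The stricter signal filter, which tests fewer genes, gave 1345 higher, 3007 in all, and 112 higher and 145 lower at 2-fold. The mean of all probe sets gave 302 at least 2-fold higher; the cause was not tested. No named gene that was called reversed, but list medians against the mean of the diploid lines changed sign for naive pluripotency (0.23 to -0.24, mean of all probe sets), trophoblast (0.58 to -0.50, stricter filter), cadherins (0.59 to -0.09, stricter filter), amino acid transporters (0.18 to -0.15, mean of all probe sets) and immediate early genes (0.14 to -0.05, stricter filter); so did 3 further lists and 11 chromosomes, all with main medians within 0.10 of 0. Leaving out each array in turn gave 1992 to 2108 higher, 2182 to 2309 lower, 4176 to 4410 in all, 447 to 461 and 381 to 400 at 2-fold, 6445 to 7008 and 6645 to 7175 against diploid EpiSC-1 and diploid EpiSC-2, and 5397 to 6100 between them. Of 180 named genes called, 165 kept call and direction under all 19 array-level alternatives that tested them, 139 with the line as a random block, and 12 with line means. The filter on the brightest line, added after seeing the data, tested 12022 genes and gave 671 higher and 488 lower at 2-fold. The same-numbered arrays of different lines deviated with correlations of -0.03 to 0.096 and others of -0.077 to 0.022. Between the diploid lines the same-numbered arrays gave 0.038, 0.096 and 0.073, and the others -0.077 to 0. Whether the numbers pair arrays of the diploid lines was not tested. A fit with the replicate number as a block gave 4532 joint calls and 462 and 388 at 2-fold.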
